A study of Mus musculus with 6 samples.

Results

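Perivascular macrophages were looked for among the brain microvascular cells of 6 male mice of 12 months, and 74 of the 44112 cells that passed the cell filter met a gate on *Mrc1*, *Cd163*, *Pf4*, and *F13a1*. The libraries came from 3 wild-type (WT) C57BL/6J mice and 3 *TgApp* ArcSwe mice, which carry human APP with the Arctic and Swedish mutations and form vascular amyloid. This transgene is driven by a neuronal promoter, so the macrophages themselves are not its intended site of expression, and none of the mice was treated. From each mouse, vascular fragments of 1 cerebral hemisphere were captured on beads coated with an antibody to the endothelial protein CD31, digested to single cells, and sequenced with 10x Genomics 3′ chemistry, so macrophages were sampled only as far as they stayed attached to the fragments. Each mouse gave 1 library, named here WT 1 to 3 and ArcSwe 1 to 3, and the mouse was the replicate.

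A cell entered the filter with 500 to 4500 detected genes and under 10% mitochondrial UMIs (unique molecular identifiers, each a counted RNA molecule). It was then chosen by at least 4 UMIs of the 4 gate genes together, 0 UMIs of the platelet genes *Ppbp*, *Itga2b*, and *Gp9*, at most 3 UMIs of the endothelial genes *Cldn5* and *Flt1*, and at least 1 UMI of *Csf1r* or *C1qa*. Of 127 cells with enough gate UMIs, 27 held a platelet UMI, 22 of the others had too many endothelial UMIs, and 4 more had neither *Csf1r* nor *C1qa*. Since the cells were selected on these values, the levels of the gate genes are given as a description, and no test result is given for them. The genes of the rules were not taken out of the fits over all genes. The comparison population was 5241 microglia, cells with at least 3 UMIs of *P2ry12* and *Cx3cr1* together and 0 of *Mrc1* and *Cd163*.

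Perivascular macrophages are resident macrophages of the space between the vessel wall and the brain surface layer of astrocyte endfeet. They take up proteins and lipoproteins from that fluid through scavenger and mannose receptors, they can present antigen on MHC class II, and they are known for clearing vascular amyloid. They share a lineage-defining receptor, *Csf1r*, and the complement C1q genes with microglia, the macrophages of the brain tissue, but lack the microglial purinergic receptor *P2ry12*.

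The label was checked against the cells, and it held for only some of them. The gate genes themselves were carried unevenly: *Mrc1*, the mannose receptor, was detected in 55 of 74 cells, *F13a1*, coagulation factor XIII subunit A, in 56, *Pf4*, the chemokine CXCL4, in 38, and *Cd163*, the haemoglobin scavenger receptor, in 22. In 16 cells *F13a1* alone carried the gate. A set of 6 blood monocyte markers, namely the chemokine receptor *Ccr2*, *Ly6c2*, *Plac8*, *Chil3*, *Vcan*, and the fibronectin gene *Fn1*, gave 3 or more UMIs in 26 gated cells. These 26 cells included all 16 that passed by *F13a1* alone.

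The 26 cells also differed from the other 48 in genes that neither the gate nor this split used. The macrophage membrane gene *Ms4a7* had 0 UMIs in the 26 cells and 658 CPM (UMI counts scaled to a common total) in the 48, and the same direction was seen for the lymphatic hyaluronan receptor gene *Lyve1*, the folate receptor gene *Folr2*, and *Cbr2*, which were at 0 in the 26 cells and were detected in 6, 11, and 19 of the 48. *Apoe*, the main lipoprotein gene of brain macrophages, was 1000 CPM in the 26 cells and 32722 CPM in the 48, and the C1q subunit gene *C1qb* was 220 and 3943 CPM. Levels of the 6 monocyte markers themselves are fixed by the split and are not compared.

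**Figure D1:**
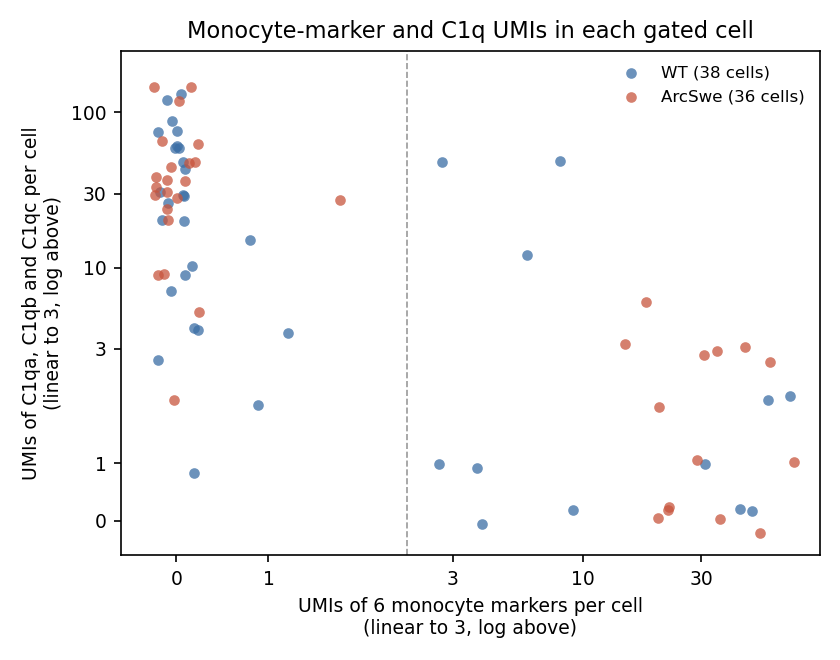
Each point is 1 of the 74 gated cells, with its UMIs of the 6 monocyte markers on the horizontal axis and its summed UMIs of *C1qa*, *C1qb*, and *C1qc* on the vertical axis (both linear to 3 and logarithmic above, with a small random shift so that points do not hide each other); blue marks WT and red ArcSwe. The dashed line separates the 26 cells with 3 or more monocyte-marker UMIs from the 48 with fewer, and cells of both genotypes lie on both sides. *C1qa* is also one of the 2 macrophage genes of the gate.

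The 26 cells were also deeper, with a median of 8684.5 UMIs against 3207 in the 48. The population was therefore mixed, and the name perivascular macrophage fits the 48 cells better than the 26. The 48 were mixed too. They held 8 of the 15 gated cells with 3 or more UMIs of *Cd209a*, listed here as a dendritic cell marker. Of these 8, a WT 2 cell had 315 *Cd74* UMIs and 0 of *Apoe*. The others had 16 to 346 *Apoe* and 0 to 35 *Cd74* UMIs, so *Cd209a* did not mark a single kind of cell. In WT 1 the cells among the 48 gave 8316 CPM over 8 microglial markers and 1339 CPM over 10 perivascular macrophage markers, gate genes among them. In every other mouse the perivascular macrophage markers of the 48 stood higher than the microglial ones. The cells are called gated cells below, and each main result is given for all 74 and again without the 26. This split was made after the data were seen, on genes that mark another cell type and not on genotype. Dendritic cell markers were nearly limited to *Cd209a*, with 21, 38, and 41 UMIs in the gated cells of WT 1, 2, and 3 and 10, 0, and 45 in those of ArcSwe 1, 2, and 3.

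RNA of other cell types was present at low levels. UMIs of the microglia rule, called microglial UMIs here (at least 3 of *P2ry12* and *Cx3cr1*), were found in 21 gated cells. This count does not measure microglial RNA alone. In the 26 monocyte-marker cells *Cx3cr1* was detected in 19 and *P2ry12* in 3, and the ArcSwe 2 cell had 4 UMIs of *Cx3cr1* and 0 of *P2ry12*. Among the gated cells 22 had 1 to 3 endothelial UMIs of *Cldn5* or *Flt1*. Summed over 8 mural markers, ArcSwe 3 had 107 UMIs, 51 of them *Acta2*, and the other mice had 0 to 5. The choroid plexus transcript *Ttr* gave 72 UMIs in WT 3 and 52 in ArcSwe 3 and at most 5 in any other mouse. Lymphocyte markers were at 0 or 1 UMI in each mouse. The part of this RNA in the results below was not tested, other than by leaving out cells with microglial or endothelial UMIs. No gated barcode occurred in another library, although 283 deposited barcodes were shared by 2 or more libraries.

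The number of gated cells ranged widely between mice. There were 8, 10, and 20 in WT 1, 2, and 3 and 11, 1, and 24 in ArcSwe 1, 2, and 3. ArcSwe 2, the smallest library with 2379 cells, contributed a single gated cell, of 7619 UMIs, and ArcSwe 3, the largest with 13389 cells, contributed the most. Of the 26 cells with monocyte-marker UMIs, 6, 2, and 4 came from the WT mice and 5, 0, and 9 from the ArcSwe mice, so WT 1 kept only 2 cells without them.

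**Figure D2:**
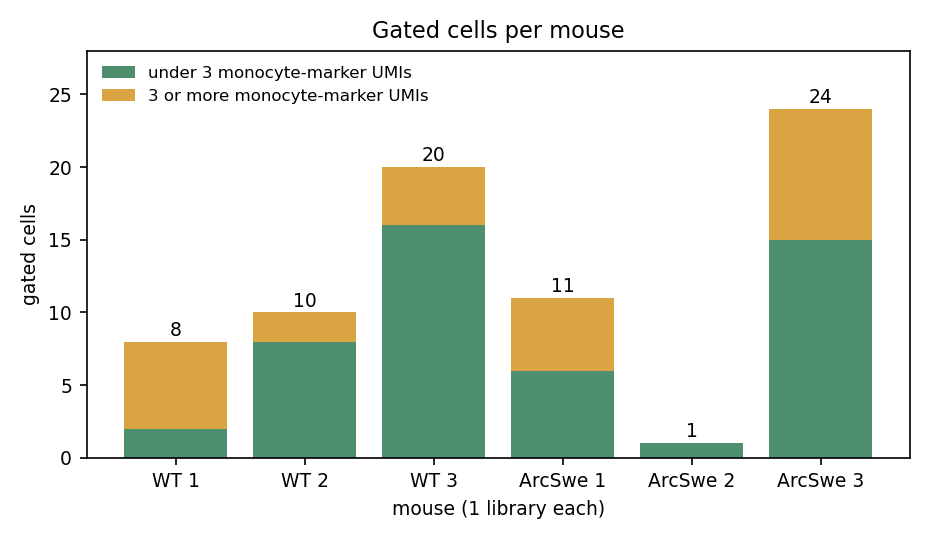
Bars give the number of gated cells in each of the 6 mice, split into cells with under 3 UMIs of the 6 monocyte markers (green) and cells with 3 or more (orange); the number above each bar is the total. The totals run from 1 cell in ArcSwe 2 to 24 in ArcSwe 3, and in WT 1 the orange cells outnumber the green ones.

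As a share of all cells passing the filter, gated cells were 0.129% in WT 1, 0.175% in WT 2, and 0.245% in WT 3. In ArcSwe 1, 2, and 3 they were 0.133%, 0.0420%, and 0.179%. The genotypes overlapped, and the means of 0.183% ± 0.0584 (SD, n = 3) in WT and 0.118% ± 0.0698 (SD, n = 3) in the ArcSwe group did not differ beyond the spread between mice (p = 0.5 by an exact two-sided permutation test, whose smallest p at 3 mice against 3 is 0.1). In gated cells with no endothelial UMI the genotypes did not overlap, with means of 0.155% in WT and 0.0721% in the ArcSwe group (p = 0.1 by the same exact test), while per 100 microglia those cells overlapped (1.09 and 0.786, exact p = 0.4). Counting error alone was large: the exact 95% binomial interval of ArcSwe 2 ran from 0.00106% to 0.234%.

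Because bead capture sets how many endothelial cells enter a library, the gated cells were also counted per 100 microglia. WT 1, 2, and 3 had 0.804, 1.17, and 1.92, and ArcSwe 1, 2, and 3 had 1.45, 0.595, and 1.69. The ranges overlapped almost fully, with means of 1.30 ± 0.571 (SD, n = 3) and 1.24 ± 0.574 (SD, n = 3) (exact two-sided permutation test, p = 1). Without the monocyte-marker cells, the means were 0.892 and 0.813 per 100 microglia (exact two-sided permutation test, p = 0.9).

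The gate has a threshold, and 24 cells lay at its edge. The 14 just outside had a gate sum of 3 UMIs, such as a WT 3 cell of 1487 UMIs with 3 of *Mrc1*, 5 of *C1qb*, and 45 of *Apoe*, and a WT 1 cell with 3 of *F13a1* and 41 monocyte-marker UMIs. The 10 just inside had 4, such as a WT 3 cell of 896 UMIs with 3 of *Mrc1*, 1 of *F13a1*, and 26 of *Apoe*, and a WT 1 cell of 8670 UMIs with 4 of *Mrc1*, 19 of *P2ry12*, and 43 of *C1qb*. That last cell carried the receptors of both macrophage types.

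The levels of the rule genes, pooled over all 6 mice, describe what was selected. *Mrc1* stood at 740 CPM in the gated cells, *Cd163* at 160 CPM, *Pf4* at 763 CPM, and *F13a1* at 1082 CPM, and *Mrc1* and *Cd163* were at 0 in microglia by construction. By mouse, *Mrc1* was 232, 874, and 1270 CPM in WT 1, 2, and 3 and 385, 2100, and 697 CPM in ArcSwe 1, 2, and 3. It was lowest in WT 1 and ArcSwe 1, the mice where monocyte-marker cells made up the largest share of the gated cells. *P2ry12* was 315, 42.7, and 196 CPM in the WT mice and 87.6, 0, and 47.8 CPM in the ArcSwe mice, against 1092 CPM in the pooled microglia.

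Genes outside the rules were then compared between gated cells and microglia of the same mouse. Of 9015 genes with a mean of at least 10 CPM over both classes, 363 were at least 2-fold higher in the gated cells in every mouse (4.03%) and 137 at least 2-fold lower in every mouse (1.52%). These are descriptions, since the gate chose the cells on the same contrast, and no test was made. Ratios were formed after adding 0.5 UMIs to each sum, which is worth 65.6 CPM in the single cell of ArcSwe 2 and 3.42 to 10.7 CPM in the other mice. Below, a gene is called higher where this ratio passed 2-fold in all 6 mice; in a mouse without a UMI of the gene the ratio rests on the added 0.5 UMIs and shows no higher level there. Of the 363 genes, 212 had no UMI in the ArcSwe 2 cell, and 100 had a UMI in the gated cells of every mouse. Once the monocyte-marker cells were left out, 342 genes were higher, 163 of them among the 363, and 38 were lower, 34 of them among the 137.

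Markers of perivascular macrophages that the gate had not used stood at the upper end. Of the 18 on the list 17 had enough UMIs, 13 of them were called higher, and the median log2 ratio of the list, for gated cells over microglia, was 6.15, beside 0.13 over all 9015 genes. Only 4 of the 13 (*Clec10a*, *Dab2*, *Ms4a7*, and *Ms4a6b*) had a UMI in the gated cells of every mouse. Without the monocyte-marker cells the count was again 13, 3 of them with a UMI in every mouse, and the median was 6.64, beside 0.43 over all genes.

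*Ms4a7* was at 82.8, 235, and 327 CPM in WT 1, 2, and 3 and 473, 394, and 287 CPM in ArcSwe 1, 2, and 3, against 2.73 CPM in the pooled microglia. It was present in every mouse. *Dab2*, an adaptor for endocytosis, was 132, 1322, and 917 CPM in the WT mice and 473, 3413, and 574 CPM in the ArcSwe mice, against 29.2 CPM in microglia, and was lowest in WT 1. *Cbr2* was 0, 149, and 183 CPM in the WT mice and 123, 131, and 109 CPM in the ArcSwe mice, against 0.682 CPM in microglia. WT 1 alone lacked it.

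*Lyve1*, often used to mark the scavenging perivascular macrophages, was sparse. It was 0, 149, and 65.5 CPM in WT 1, 2, and 3 and 17.5, 263, and 0 CPM in ArcSwe 1, 2, and 3, where the value of ArcSwe 2 rests on 2 UMIs. WT 1 and ArcSwe 3 were at 0, although ArcSwe 3 had the most gated cells. *Folr2* was 0, 21.3, and 105 CPM in the WT mice and 35.0, 1313, and 54.7 CPM in the ArcSwe mice, so most of its spread came from the single ArcSwe 2 cell.

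The 12 genes with the largest median ratio were *Cd209a*, *Cd209f*, *Clec10a*, *Hist1h1b*, *Mgl2*, *Lyve1*, *Met*, *Clec4b1*, *Rrm2*, *Ccr2*, *Cd209b*, and *S100a4*. 6 of these encode C-type lectins or lectin-like receptors (*Cd209a*, *Cd209b*, *Cd209f*, *Clec10a*, *Mgl2*, and *Clec4b1*), which bind sugars of glycoproteins and microbes. *Cd209f* was 0, 171, and 314 CPM in the WT mice and 0, 0, and 123 CPM in the ArcSwe mice, and *Clec10a* was 99.4, 85.3, and 288 CPM and 52.5, 131, and 116 CPM. *Cd209f* was at 0 in the microglia of every mouse and *Clec10a* at 0.227 CPM in the pooled microglia, and *Clec10a* was detected in the gated cells of all 6 mice. The calcium-binding protein gene *S100a4* lost its place without the monocyte-marker cells, where it was at 0 in all mice but WT 2. The top of that list was then *Cd209f*, *Clec10a*, *Ms4a7*, *Mgl2*, *Cd209b*, the phosphatidylserine receptor gene *Timd4*, *Lyve1*, the complement receptor gene *Vsig4*, *Cd209g*, *Tlr8*, *Cbr2*, and *Fcna*.

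Genes that define resting microglia lay at the other end. Of 13 homeostatic microglial genes outside the rules, 10 were at least 2-fold lower in the gated cells of every mouse, with a median log2 ratio of −2.76. The membrane protein gene *Tmem119* was 166, 21.3, and 26.2 CPM in the WT mice and 0, 0, and 13.7 CPM in the ArcSwe mice, against 614 CPM in microglia. With the 26 cells left out, the median was −2.20 and 1 of the 13 passed in every mouse. WT 1 then consisted of 2 cells, in which *Tmem119* was 705 CPM.

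The 12 genes furthest below microglia were *Nav3*, *Csmd3*, *Nav2*, *Plxdc2*, *Klf12*, *Atp8a2*, *Serpine2*, *Spock2*, *Itm2a*, *Sparc*, *Adamts1*, and *Ly6c1*. Of these, *Spock2*, *Itm2a*, *Ly6c1*, *Klf12*, and *Adamts1* had a higher pooled level in the endothelial cells than in microglia, and *Sparc* was 767 CPM there against 1278 CPM in microglia. The gate limited endothelial UMIs in the gated cells but the microglia rule did not. Summed over 8 endothelial markers, microglia held 1148, 1451, and 6648 CPM in WT 1, 2, and 3 and 4032, 2735, and 9128 CPM in ArcSwe 1, 2, and 3. Over 8 microglial markers they held 12945, 11902, and 7719 CPM and 8295, 8615, and 5546 CPM. *Nav3* was 820.7 CPM in the pooled microglia and was detected only in WT 1 and WT 3 among the gated cells, at 16.6 and 39.3 CPM. Without the 26 cells *Csmd3*, *Nav2*, *Serpine2*, and *Sparc* were no longer called lower.

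Lipid genes were led by *Apoe*. It was 8016, 21906, and 22757 CPM in WT 1, 2, and 3 and 15692, 25856, and 10244 CPM in ArcSwe 1, 2, and 3, at least 2-fold above the microglia of the same mouse in all 6, and it was 2150 CPM in the pooled microglia. Endothelial cells, which are not a main source, held 868 CPM. When thinned to 1000 UMIs, 44.5% to 57.7% of them had an *Apoe* UMI. The part of RNA free in the suspension in these values was not tested. The gated cells of all 6 mice lay above the endothelial level. In the 48 cells *Apoe* was 25856 to 47347 CPM by mouse. Of the 13 lipid and apolipoprotein genes considered, *Apoe* and *Apoc2* alone were called higher, *Apoc2* with a UMI in 5 mice and not without the 26 cells, and the median log2 ratio was 0.89.

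Scavenger and endocytic receptors were called higher for 4 of 14 genes considered (*Lyve1*, *Msr1*, *Dab2*, and *Colec12*, of which *Msr1* and *Dab2* had a UMI in every mouse), lower for *Mertk*, and had a median log2 ratio of 1.91. Without the monocyte-marker cells 6 of 15 were called higher, 2 of them with a UMI in every mouse, with a median of 2.63. *Msr1*, the class A scavenger receptor that binds modified lipoproteins and amyloid, was 16.6, 171, and 131 CPM in the WT mice and 17.5, 525, and 82.0 CPM in the ArcSwe mice, against 3.05 CPM in microglia. *Stab1*, a scavenger receptor often used as a marker, was not called, with a lowest log2 ratio of −0.67 in 1 mouse and a highest of 2.43. The receptor kinase gene *Mertk* and the lipid receptor gene *Trem2*, both used for clearance by microglia, were lower in every mouse, with medians of −1.94 and −2.48. Neither was called without the 26 cells, where the medians were −0.98 and −1.42.

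Complement genes split. The C1q subunit *C1qb* had a median log2 ratio of −1.08 (lowest −1.90, highest 0.85) and was not called, and its median turned to 0.41 without the 26 cells, while *C4b*, *C2*, *C3*, and the properdin gene *Cfp* were called higher, although none of the 4 had a UMI in every mouse. *C4b* was 0, 128, and 183 CPM in the WT mice and 52.5, 788, and 61.5 CPM in the ArcSwe mice, against 4.18 CPM in microglia. *C4b* and *Cfp* were above 0 in 5 mice and *C2* and *C3* in 4, and *Cfp* was detected only in WT 2 and WT 3 once the monocyte-marker cells were left out. *C3* then lost its call.

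The chemokine genes *Ccl24* and *Ccl9*, with a UMI in every mouse, and *Ccl8*, with a UMI in 4, were called higher and the interleukin gene *Il1a* lower, among 18 chemokines and cytokines considered with a median log2 ratio of 0.82. Without the 26 cells *Ccl9* and *Il1a* lost their calls, with medians of 0.27 and −3.44. *Ccl8* was 0, 0, and 380 CPM in the WT mice and 35.0, 263, and 144 CPM in the ArcSwe mice. *Ccl7* was 6694 CPM in the ArcSwe 2 cell and 0 to 550 CPM in the other mice, and was not called. Of 11 growth factor genes, *Bmp2* and *Hgf* were called higher, but each had a UMI in only 4 mice. *Igf1*, insulin-like growth factor 1, was 0, 42.7, and 131 CPM in the WT mice and 70.1, 0, and 88.8 CPM in the ArcSwe mice, against 19.4 CPM in microglia. With 0.5 UMIs added its log2 ratio was above 0 in all 6 mice, but it passed the 2-fold limit in every mouse only without the monocyte-marker cells.

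Other groups were close to microglia or followed the monocyte-marker cells. The haem-degrading biliverdin reductases *Blvra* and *Blvrb* were called higher (*Blvrb* alone without the 26 cells), *Blvrb* at 132, 235, and 223 CPM in the WT mice and 140, 262.5, and 212 CPM in the ArcSwe mice against 55.0 CPM in microglia, while the median of 13 iron and haem genes was 0.46. Cathepsin and lysosome genes had a median of 0.017, with only *Ctsd* lower among 18. Without the 26 cells the median was 0.48 and *Ctsd* was not called, at −1.61. The galectin gene *Lgals3* was 1722, 789, and 262 CPM in the WT mice and 2014, 0, and 1244 CPM in the ArcSwe mice. It was at most 300.2 CPM in any mouse without the monocyte-marker cells and was no longer called. Cell cycle genes behaved alike: *Mki67*, *Pclaf*, and *Birc5* were called higher among 6 considered with all cells, with a UMI in 4, 3, and 3 mice, and 1 gene of the list was left to consider, with a log2 ratio of −0.16, without the monocyte-marker cells.

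**Figure D3:**
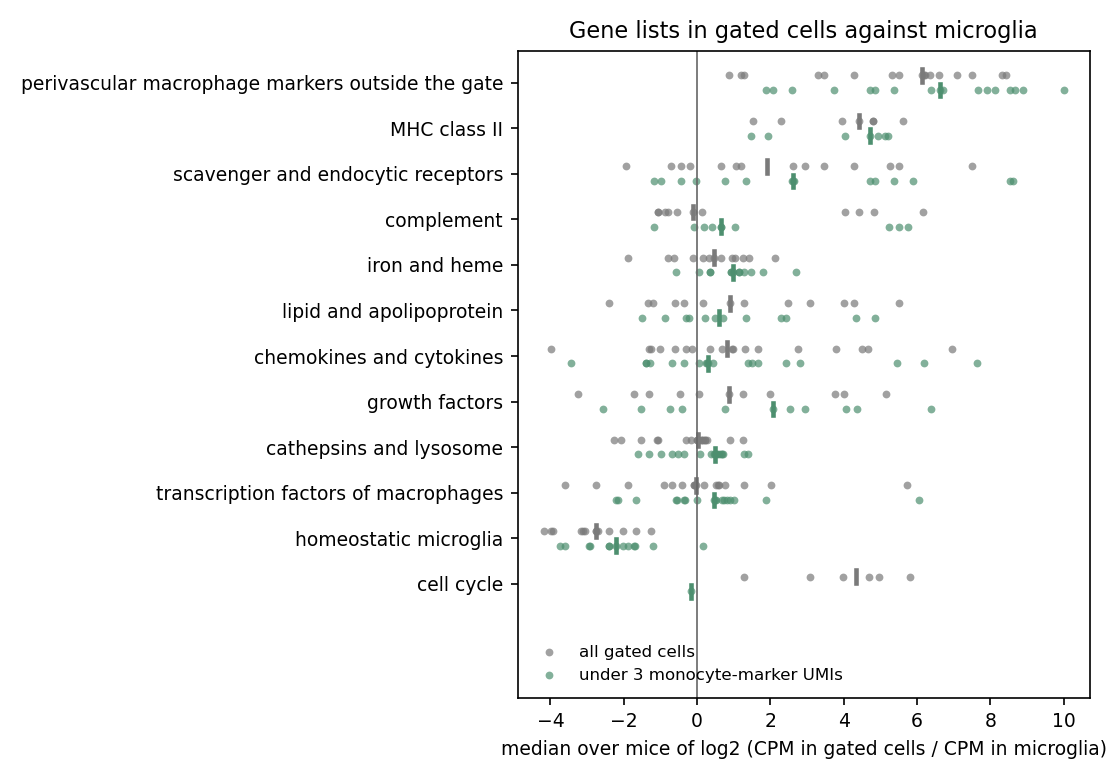
Each point is 1 gene of the list named at the left, placed by its median over the 6 mice of the log2 ratio of CPM in gated cells over CPM in microglia (0.5 UMIs added); vertical ticks mark the list medians, grey for all 74 gated cells and green for the 48 with under 3 monocyte-marker UMIs. Perivascular macrophage markers outside the gate lie furthest to the right (medians 6.15 and 6.64), homeostatic microglial genes to the left (−2.76 and −2.20), and cell cycle genes move from 4.33 to −0.16 between the colours.

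MHC class II was the other high group. All 7 genes considered had a higher level in the gated cells in at least 5 of 6 mice, as did 2487 of all 9015 genes. The median log2 ratio of the 7 was 4.42. *H2-Ab1* and the transactivator gene *Ciita* were called higher, *Ciita* with a UMI in 5 mice. *H2-Aa*, *H2-Ab1*, and *H2-Eb1* encode the chains of the peptide-presenting molecule, *Cd74* its invariant chain, and *H2-DMa* and *H2-DMb1* the peptide-loading partner. Over the 48 cells alone, the median was 4.72. The genes were spread unevenly over single cells: *Cd74* had a median of 1 UMI and a highest value of 315 UMIs in the 48 cells, and a median of 13.5 and a highest value of 265 UMIs in the 26.

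Promoters of MHC class II chain genes hold a Y box, an inverted CCAAT sequence. RefSeq promoter sequences of GRCm38.p6 were found for 4 of the 7 genes and the letters TGATTGG were searched on both strands of the 250 bases before the start. They occurred once each before *H2-Aa*, *H2-Eb1*, and *H2-DMb1*, 50, 61, and 63 bases from the start, and in neither *H2-DMa* entry, and in 7.23% of all 32851 promoters. The stretches of the 2 chain genes whose levels are compared below are shown, from 110 to 31 bases before the start, with the motif in capitals, at chr17:34287854-34287933 on the minus strand for *H2-Aa* and chr17:34305757-34305836 on the plus strand for *H2-Eb1*. A match is a description and does not show that a factor binds there.
H2-Aa: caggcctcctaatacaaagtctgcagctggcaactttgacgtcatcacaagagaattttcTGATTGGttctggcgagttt
H2-Eb1: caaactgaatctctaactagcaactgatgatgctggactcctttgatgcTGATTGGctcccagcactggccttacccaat

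The share of gated cells with an MHC class II UMI (*H2-Aa*, *H2-Ab1*, *H2-Eb1*, or *Cd74*) was compared after each cell with enough UMIs was thinned to 1000 UMIs. Shallower cells were left out, namely those of 896 and 737 UMIs in WT 3 and of 836 UMIs in ArcSwe 3. It was 62.5%, 70.0%, and 61.1% in WT 1, 2, and 3 and 63.6%, 100%, and 34.8% in ArcSwe 1, 2, and 3, where the 100% is the 1 cell of ArcSwe 2. The ArcSwe values lay on both sides of the WT values, and the means of 64.5% ± 4.78 and 66.1% ± 32.7 (SD, n = 3 each) did not differ beyond the spread (exact two-sided permutation test, p = 0.8). Without ArcSwe 2 the ArcSwe mean was 49.2%, 15.3 percentage points below WT (exact p = 0.3), so the direction turned without its 1 cell. Without thinning the means were 68.3% and 75.4%. Microglia had 19.0% ± 4.85 in WT and 25.5% ± 3.22 in ArcSwe mice (SD, n = 3 each), and endothelial cells, which should lack these genes at rest, had 1.52% and 2.53%, at median depths of 2928 to 5555 UMIs per cell, against 3159 to 8070.5 in the gated cells.

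The levels of the genes were lower in ArcSwe gated cells, although none passed the test across all genes. *H2-Eb1* was 4704, 5076, and 3679 CPM in WT 1, 2, and 3 and 1541, 131, and 642 CPM in ArcSwe 1, 2, and 3. All ArcSwe mice lay below all WT mice. Its log2 fold change was −2.47 (SE 0.62, unadjusted p = 0.00247 and adjusted p = 0.988 from edgeR's quasi-likelihood test with Benjamini-Hochberg adjustment).

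*Cd74* was 9026, 12286, and 7830 CPM in the WT mice and 6182, 263, and 1804 CPM in the ArcSwe mice, again without overlap, with a log2 fold change of −1.83. *H2-Aa* was 3445, 3455, and 3300 CPM in the WT mice and 1734, 0, and 827 CPM in the ArcSwe mice, with a log2 fold change of −1.91, and *H2-Ab1* was 4157, 4202, and 2763 CPM against 1751, 525, and 697 CPM, also with −1.91. The 0 of *H2-Aa* comes from the single ArcSwe 2 cell, whose sum of 7619 UMIs puts 1 UMI at 131 CPM. All 6 MHC class II genes tested had negative fold changes, as did 469 of all 909 genes tested. Of the 6, 5 had genotypes that did not overlap (9.35% of all 909 genes), and 5 had an unadjusted p under 0.05 in edgeR (3.96% of all). Their median log2 fold change was −1.87 beside −0.013 over all genes tested.

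Dendritic cell markers moved with these levels. Summed over 5 such markers, of which *Cd209a* gave nearly all UMIs, the gated cells held 348, 853, and 615 CPM in the WT mice and 210, 0, and 328 CPM in the ArcSwe mice, without overlap. The 4 cells with the most *Cd74* (315, 265, 231, and 198 UMIs) were all from WT mice, and each had 13 to 21 *Cd209a* UMIs and 0 of *Apoe*. Cells with 3 or more *Cd209a* UMIs, a limit set after seeing the data, numbered 15. This limit also took in cells with macrophage genes, such as an ArcSwe 3 cell with 8 *Cd163* and 228 *Apoe* UMIs. The 15 cells held 265 of 545, 548 of 576, and 284 of 598 *Cd74* UMIs in WT 1, 2, and 3, against 33 of 353, 0 of 2, and 30 of 264 in ArcSwe 1, 2, and 3. Without these 15 cells *Cd74* was 5526, 1117, and 5940 CPM in the WT mice and 6603, 263, and 2278 CPM in the ArcSwe mice, and *H2-Aa* was 2171, 39.9, and 2364 CPM against 1837, 0, and 1120 CPM. Both genes then overlapped between the genotypes.

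The levels also varied with the monocyte-marker cells. Without the monocyte-marker cells 4 of the genes could be tested, none had an unadjusted p under 0.05, and the median was −1.25. In these 48 cells *Cd74* was 7893, 12041, and 5383 CPM in the WT mice and 7458, 263, and 4304 CPM in the ArcSwe mice, so that ArcSwe 1 lay above WT 3. In WT 2, 1 of its 8 cells among the 48 carried 315 of the 361 *Cd74* UMIs and 91 of the 97 *H2-Aa* UMIs, and the other 7 cells stood at 2204 CPM of *Cd74* and 287 CPM of *H2-Aa*. By mouse, *H2-Aa* in the 48 cells was 4440, 3235, and 1981 CPM in WT against 1921, 0, and 2170 CPM, also with overlap, and *H2-Ab1* and *H2-Eb1* overlapped as well. With *F13a1* left out of the gate, which drops the cells that passed by it alone, all 6 had an unadjusted p under 0.05, all negative, and the median was −2.01. Over all genes tested with that gate, 35 of 398 had an unadjusted p under 0.05 in edgeR. Without ArcSwe 2, over all other gated cells, all 6 genes kept negative fold changes, with a median of −1.42, and 5 had an unadjusted p under 0.05. In that fit 557 of all 1099 genes tested were negative, and 71 had an unadjusted p under 0.05 in edgeR. WT 1 had 6 of its 8 cells among those with monocyte markers. The part of the monocyte-marker and *Cd209a* cells in the difference was otherwise not tested.

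**Figure D4:**
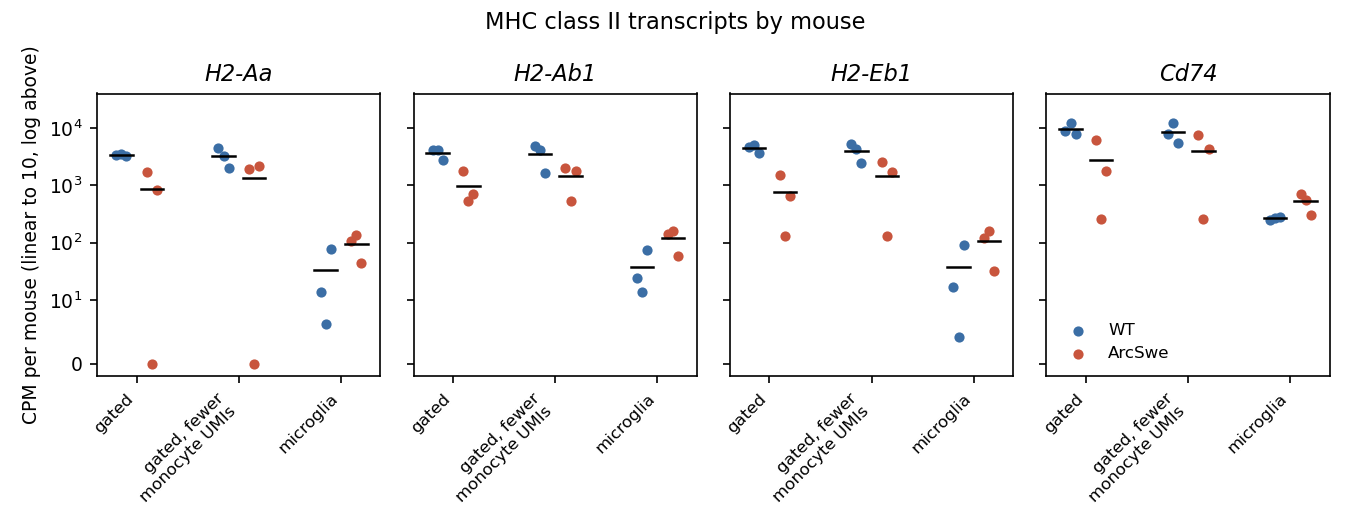
Points give CPM per mouse (linear to 10, logarithmic above) of 4 MHC class II genes in all gated cells, in gated cells with under 3 monocyte-marker UMIs, and in microglia, blue for WT and red for ArcSwe; black lines are group means of 3 mice. In all gated cells the red points lie below the blue ones, in the second group the genotypes overlap for all 4 genes, and in microglia the red means lie above the blue.

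Across all genes, no difference between the genotypes was detected in the gated cells. Among 909 tested genes, edgeR called 0 at an adjusted p of 0.05 (0%), as did DESeq2, and the smallest adjusted p of edgeR was 0.988. An unadjusted p under 0.05 was reached by 36 genes (3.96%) in edgeR and 18 in DESeq2, and 85 genes had genotypes that did not overlap (9.35%), 47 with ArcSwe above WT and 38 below. With changes simulated at these depths, edgeR recovered 134 of 200 genes changed 4-fold and 0 of 200 changed 2-fold, so changes of 2-fold were below what these libraries can show. The 200 genes changed 4-fold were set among 777, and so large a part eases the adjustment. The 134 therefore does not show that a few genes changed 4-fold would be called. In the data *H2-Eb1*, with a log2 fold change of −2.47, had an adjusted p of 0.988 in edgeR. For the 48 cells, 272 genes were tested, 0 were called by edgeR, and 14 had an unadjusted p under 0.05.

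Of the 10 genes with the smallest unadjusted p, 9 are named as not passing. They were *H2-Eb1*, *Mgl2*, *H2-Ab1*, *Tuba1b*, *Tubb5*, *Plcb1*, *Emp3*, *Zfand5*, and *Klf2*. The tubulin genes *Tuba1b* and *Tubb5*, cytoskeleton components that are high in dividing cells, had log2 fold changes of 1.45 and 1.54. *Tuba1b* was 82.8, 107, and 131 CPM in the WT mice and 315, 262.5, and 335 CPM in the ArcSwe mice, without overlap. Without the monocyte-marker cells it was 70.5, 167, and 108 CPM against 169.5, 262.5, and 161 CPM, and ArcSwe 3 fell within the WT range.

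*Mgl2*, a lectin of macrophages and dendritic cells, was 447, 1066, and 275 CPM in the WT mice and 0, 394, and 34.2 CPM in the ArcSwe mice, with a log2 fold change of −3.76, and its genotypes overlapped through ArcSwe 2. The flow-responsive transcription factor gene *Klf2* had a log2 fold change of 1.34, at 1557, 1408, and 1165 CPM in the WT mice and 3047, 6431, and 2207 CPM in the ArcSwe mice. Without the monocyte-marker cells it was 4933, 1935, and 1766 CPM against 5876, 6431, and 3085 CPM, and WT 1 lay above ArcSwe 3. *Klf2* belongs to the genes that respond to tissue dissociation, a list of 16 tested genes whose median log2 fold change was 0.26.

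Other lists held little. Of the perivascular macrophage markers outside the gate 7 were tested, with a median log2 fold change of 0.21, and *Ms4a6b* alone had an unadjusted p under 0.05, with a log2 fold change of 1.09. *Pf4* of the gate itself was 66.2, 512, and 1048 CPM in the WT mice and 788, 3806, and 813 CPM in the ArcSwe mice, with overlapping genotypes. Without the 26 cells it was 282, 801, and 1658 CPM in the WT mice and 2543, 3806, and 2134 CPM in the ArcSwe mice, without overlap. Since the cells were selected on *Pf4*, both sets of values are a description. The cathepsin and lysosome list (17 tested) had a median of −0.21, complement (7 tested) 0.40, MHC class I (5 tested) 0.30, scavenger receptors (8 tested) −0.16, and macrophage transcription factors (12 tested) 0.072, among them *Irf8* with 1.22. The complement list holds 1 gene of the gate, *C1qa*, which was not taken out, so its median is partly a description of selected values. 5 interferon response genes were tested, with a median of 0.64, *Ly6e* at 1.29 and *Cxcl10* at −1.42 among them. Without the 26 cells the median was 0.95 for MHC class I (3 tested), 1.36 for the interferon genes (4 tested), 0.58 for the perivascular macrophage markers (5 tested), and −0.091 for the transcription factors (8 tested), which thus turned. Several medians over all gated cells turned with 1 mouse left out: that of complement was −0.58 without ArcSwe 2, of MHC class I −0.015 without WT 2, of the interferon genes −0.15 and of the dissociation genes −0.15 without WT 3, and of the perivascular macrophage markers −0.072 without WT 1.

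The genes of disease-associated microglia (DAM) were of interest because microglia near amyloid take on this state. In the gated cells 7 of 16 DAM genes were tested, with a median log2 fold change of −0.12 and none with an unadjusted p under 0.05. The protease inhibitor gene *Cst7* was listed at 0 in the gated cells of 5 mice and 13.7 CPM in ArcSwe 3, while in microglia it was 4.28, 5.11, and 6.48 CPM in the WT mice and 282, 90.7, and 295 CPM in the ArcSwe mice. In microglia all ArcSwe mice lay far above all WT mice. *Spp1*, osteopontin, was 0 to 64.0 CPM in the gated cells, and *Apoe* had a log2 fold change of −0.19 there (SE 0.48). *App* was 348, 512, and 327 CPM in the WT mice and 631, 394, and 554 CPM in the ArcSwe mice, with overlap. *Casp4*, an inflammatory caspase gene, was 215, 171, and 91.7 CPM and 158, 394, and 198 CPM, also with overlap.

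Whether the genotype effect differed between gated cells and microglia was tested directly, with the mouse as a block. In microglia alone 4 of 11813 genes were called (0.0339%), namely *Ifi207*, *Cst7*, *Rab7b*, and *Ptchd1*. The difference of effects passed for 23 of 6509 genes (0.353%), with 21 differences negative and 2 positive. For 20 of the 21 the estimated fold change in microglia was positive, so for these the negative sign meant a smaller rise or a lower level in gated cells. The other, *Prtn3*, was not tested in microglia alone.

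MHC class II genes were among these. The difference of log2 fold changes was −4.83 for *H2-Eb1* (SE 0.83, adjusted p = 4.57e-05), −4.35 for *H2-Aa*, −4.11 for *H2-Ab1*, and −3.36 for *Cd74* in edgeR. In microglia *H2-Eb1* was 17.0, 4.26, and 92.2 CPM in the WT mice and 121, 162, and 32.6 CPM in the ArcSwe mice, with overlap, and *Cd74* was 246, 273, and 285 CPM and 703, 565, and 307 CPM, without. The estimates of these genes thus differed in sign between the 2 populations, while the genotype difference in each alone did not pass.

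The other called genes with negative differences included *Tnip3* (−3.92), *Myo1e* (−4.57), *Alcam* (−2.87), *Fgf13* (−5.43), *Bcl2a1d* (−4.65), and *Ifit2* (−5.83). *Phlda1* (−5.56), *Cd72* (−4.88), *Cpd* (−5.09), *Prtn3* (−3.76), and *Fnbp1l* (−10.5) were also called. Several of these sizes rest on few gated UMIs. *Fnbp1l* had 2, 5, and 2 in WT 1, 2, and 3 and 0 in each ArcSwe mouse. In the same order, *Phlda1* had 3, 5, and 1 against 0, 0, and 1, and *Cpd* 6, 0, and 4 against 0, 0, and 1. *Ifit2* had 4, 3, and 1 against 1, 0, and 0. The remaining called genes were picked for description with their values in view. The interferon-induced chemokine gene *Cxcl10* had a difference of −3.90. It was 464, 256, and 170 CPM in the WT and 87.6, 0, and 144 CPM in the ArcSwe gated cells. In microglia it was 157, 325, and 59.8 CPM in the WT mice and 897, 451, and 748 CPM in the ArcSwe mice. Without the 26 cells *Cxcl10* was 0, 400.3, and 280 CPM in the WT and 282.5, 0, and 359 CPM in the ArcSwe gated cells, with overlap. The interferon-inducible DNA and RNA sensor genes *Ifi207* and *Ifih1* had −3.24 and −3.27, the chemokine gene *Cxcl2* −3.81, and the DAM genes *Axl* and *Clec7a* −4.11 and −2.62. *Clec7a*, a β-glucan receptor whose sequence the authors added to their reference, was 248, 128, and 170 CPM in the WT and 420, 262.5, and 116 CPM in the ArcSwe gated cells, with overlap. In microglia it was 12.1, 8.31, and 19.0 CPM and 109, 49.1, and 86.1 CPM, without overlap.

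The positive differences were those of the histone genes *Hist1h1b* (5.36) and *Hist1h2ap* (4.08), which are transcribed in dividing cells. *Hist1h1b* was 132, 0, and 13.1 CPM in the WT and 280, 0, and 410 CPM in the ArcSwe gated cells, so the genotypes overlapped. Its difference ran from 0.083 (without WT 3) to 9.31 (without WT 1) with 1 mouse left out, that of *Hist1h2ap* from 2.92 to 6.48, and neither gene was called without WT 3 or without ArcSwe 3. *Hist1h1b* was not among the genes considered once the monocyte-marker cells were left out.

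The calls depended on the gate. When the 26 cells were left out, 0 of 6215 genes passed in edgeR (237 had an unadjusted p under 0.05, smallest adjusted p = 0.328), with *H2-Eb1* at −3.89, and with at least 8 gate UMIs 0 passed (219 unadjusted, smallest adjusted p = 0.0604). The latter gate keeps 47 cells, 18 of them with 3 or more monocyte-marker UMIs, so it did not lower their share. Under the other gates and filters calls were kept: 21 genes were called with no endothelial UMI (14 of the 23 among them), 32 without cells with microglial UMIs (15 of the 23), 28 with the stricter cell filter (all 23), and 31 with *F13a1* left out of the gate (13 of the 23). Without the 26 cells the difference was −0.48 for *Cxcl2* and −1.09 for *Ifih1*, but −2.43 for *Cxcl10*, −2.44 for *Ifi207*, −2.75 for *Clec7a*, and −3.14 for *Axl*. Those of *H2-Aa*, *H2-Ab1*, and *Cd74* are not given. DESeq2 called 7 genes, all among the 23. In the ArcSwe 2 cell 16 of the 23 genes had no UMI, and without ArcSwe 2 37 genes were called, 22 of the 23 among them.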

How the data were processed

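The count matrices deposited by the authors hold raw UMI counts per gene and cell, not normalized, made with Cell Ranger 7.0.0 and the mm10 build per the submitters' processing notes. They list 2907 to 14928 cells per mouse, 49059 in all. The gate, its members, and all gene lists were chosen with earlier results of these data known. Doublets were not called; the gate removed cells with over 3 endothelial UMIs. Counts of the gated cells were summed per mouse (7619 to 146322 UMIs), as were those of microglia (529405 to 5601262) and endothelial cells (at least 4 *Cldn5* and *Flt1* UMIs, 23061 cells). The gene classes that the study drops before testing (mitochondrial, ribosomal, Rik, and pseudogenes) were left out here too. The genes of the gate and of the microglia rule were not left out of the fits. The quasi-likelihood test of edgeR 4.0.16 (R 4.3.3) was run on the sums after filterByExpr and TMM scaling, on genotype alone, or, for the difference of effects, on mouse, cell class, and class by genotype. The threshold was an adjusted p (Benjamini-Hochberg) of 0.05. For shares, exact permutation tests (two-sided, scipy 1.17.1) were used, and their intervals are Clopper-Pearson intervals at 95% that cover counting error only. The tests were tried on simulated counts. DESeq2 1.42.0 was an alternative.

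Named genes were those of the rules, the 12 with the largest median log2 ratio in each direction, the 10 with the smallest unadjusted p between genotypes, up to 4 of the most abundant members of each list and list members with an unadjusted p under 0.05, and 9 fixed genes. Other genes were picked with their values in view, among them *Ms4a7*, *Cbr2*, *Folr2*, *Msr1*, *C4b*, *Cfp*, *C3*, *Ccl8*, *Tmem119*, and the genes with called differences. Of the 10 genes by unadjusted p, 1 is not reported here. Alternatives changed the gate, cell filter, thinning, tool, normalization, filters, or mice; those without monocyte-marker cells, without *Cd209a* cells, without *F13a1*, and with a UMI in every mouse were added after seeing the data.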

Additional observations from a re-analysis of the deposited data

Results flagged for a closer look

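The genotype effect differed between gated cells and microglia, by the test of the difference itself in edgeR, for 23 genes. Of the MHC class II genes these were *H2-Eb1* with a difference of log2 fold changes of −4.83, *H2-Aa* with −4.35, *H2-Ab1* with −4.11, and *Cd74* with −3.36. Dendritic cell markers moved with the MHC class II levels of the gated cells. Without the cells with 3 or more *Cd209a* UMIs, *Cd74* and *H2-Aa* overlapped between the genotypes there. The part of the *Cd209a* cells in the differences of effects was not tested. Among the other called genes were *Cxcl10* with −3.90, *Cxcl2* with −3.81, *Ifi207* with −3.24, *Ifih1* with −3.27, *Clec7a* with −2.62, and *Axl* with −4.11. *Tnip3* had −3.92 and *Ifit2* −5.83, and the remaining called genes with negative differences are named above. *Ifit2* rests on 4, 3, and 1 gated UMIs in WT 1, 2, and 3 and 1, 0, and 0 in ArcSwe 1, 2, and 3. The histone genes *Hist1h1b* and *Hist1h2ap* had 5.36 and 4.08, with ranges of 0.083 to 9.31 and 2.92 to 6.48 when 1 mouse was left out. Without the cells with 3 or more monocyte-marker UMIs none of the 23 was called. The differences were then −3.89 for *H2-Eb1*, −3.14 for *Axl*, −2.75 for *Clec7a*, −2.44 for *Ifi207*, −2.43 for *Cxcl10*, −1.09 for *Ifih1*, and −0.48 for *Cxcl2*. Those of *H2-Aa*, *H2-Ab1*, and *Cd74* are not given, and the value of *H2-Eb1* does not stand for them. In the gated cells left, the levels of *H2-Eb1* and of these genes overlapped between the genotypes. The part of the monocyte-marker cells in the differences was not tested further.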

How the results depend on the processing

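No gene was called between genotypes in the gated cells under any alternative but 1: without the low-count filter 6 of 11968 genes were called. With the replicate block 0 were called and 35 had an unadjusted p under 0.05. Same-numbered mice correlated at 0.374, 0.133, and −0.101 in their deviations, so the numbers were not taken as pairs. The 23 called differences between gated cells and microglia became 0 with at least 8 gate UMIs, 0 without monocyte-marker cells, 21 with no endothelial UMI, 32 without cells with microglial UMIs, 28 with the stricter cell filter, 31 without *F13a1*, 7 with DESeq2, and 9 to 60 when 1 mouse was left out (60 without WT 3, 37 without ArcSwe 2, 13 without WT 2, 12 without WT 1, 9 without ArcSwe 3). The 363 genes higher in gated cells were 170 at 4-fold, 154 at a mean of 50 CPM or more, 100 with a UMI in every mouse, and 368 to 438 with 1 mouse left out. The 137 lower genes were 315 without cells with microglial UMIs (which removes ArcSwe 2), 38 without monocyte-marker cells, 72 with *F13a1* left out of the gate, 24 at 4-fold, and 142 to 308 with 1 mouse left out (308 without ArcSwe 2). The difference in gated cells per 100 microglia, −0.0561, was 0.228 with at least 8 gate UMIs, 0.262 with the stricter cell filter, 0.259 after thinning to 2000 UMIs, and −0.304 to 0.268 with 1 mouse left out. The difference in MHC class II share, 1.60 percentage points, was 21.0 with at least 8 gate UMIs, 12.9 at 2000 UMIs per cell, −18.5 without cells with microglial UMIs, −4.76 without monocyte-marker cells, −0.0661 without *F13a1*, −22.6 without both ArcSwe 2 and monocyte-marker cells, and −15.3 to 17.3 with 1 mouse left out. That in the share of all cells was −0.0954 to −0.0268 percentage points, and −0.0829 with no endothelial UMI, where the genotypes did not overlap. Without the cells with 3 or more *Cd209a* UMIs, the ArcSwe minus WT difference in mean CPM went from −6965 to −1146 for *Cd74* and from −2546 to −540 for *H2-Aa*. *Apoe* had a log2 fold change of 0.33 with at least 8 gate UMIs and 0.39 without *F13a1*. In all, 2 of 266 genotype fold changes reversed, and of 188 differences 52 lost their call and 0 reversed. The causes were not tested. The power of this design was low for the differences: of 200 simulated 4-fold differences 13 were recovered, and of 200 8-fold ones 75.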
